A study of Homo sapiens with 2 samples.

Results

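The cells described here are the PC9 cells with the most mitotic transcripts in a pooled CRISPR screen, 1014 of 10142 kept cells. They were chosen by the summed unique molecular identifiers (UMIs, each standing for 1 captured RNA molecule) of AURKA, ASPM, CDC20, CCNB1, CENPF and PLK1, divided by all gene UMIs of the cell. The 10% of cells with the highest values form the high-score cells, and the 5071 cells at or below the median, the 50% with the lowest values, form the low-score cells to which they are compared. Because these 6 genes made the classes, their levels and every other gene's difference between the classes are descriptions without a test.

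PC9 is an established human lung adenocarcinoma line that depends on a mutant EGF receptor. The cells had been spinfected with a lentiviral sgRNA library in 8 ug/ml polybrene at an infection rate near 40%, and selected in 1 ug/ml puromycin. The labels speak of a knockout, but also of dCas9 and of a knockdown, name day 8 for this experiment and day 7 for a first harvest, and put non-targeting controls at 5% of the library, so which perturbation the guides made is not settled here. They also describe vectors with several guides in tandem and name CTNNB, ATF, MYC and JUN as targets, whereas the matrix lists single guides and also PGAM1 and CTCF, so a cell assigned to 1 sgRNA may hold others that were not captured. All cells, controls included, carry this treatment and come from 1 pooled culture read by 10x 3' single-cell sequencing with capture of the sgRNAs. The 36 sgRNAs in the matrix were 4 non-targeting controls, 4 each against MYC and PGAM1 and 6 each against CTNNB1, JUN, ATF4 and CTCF, and 5556 kept cells could be assigned to 1 of them.

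As a cell leaves S phase it builds up cyclin B, which activates the kinase CDK1 and drives entry into mitosis. Aurora and Polo kinases then mature the spindle poles and attach chromosomes to microtubules, the spindle checkpoint holds the cell until attachment is complete, and the anaphase-promoting complex with CDC20 destroys cyclin B and securin. The messages for these proteins accumulate together in G2 and stay high until division, so their RNA alone does not separate G2 cells from cells in mitosis.

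The score was 0 or low in most cells. In 3229 cells, 31.8% of those kept, none of the 6 genes had a UMI. The median score was 1.37 UMIs per 10000 over all kept cells and 20.1 in the high-score cells, with a highest value of 62.4. High-score cells held a median of 29 UMIs of the 6 genes, ranging from 2 to 136, and 644 of them (63.5%) held all 6. Only 2 high-score cells rested on a single rule gene, 7 on 2 of them and 33 on 3. CENPF, a kinetochore protein, made up 36.5% of the rule UMIs in high-score cells and CCNB1, the cyclin B of mitotic entry, 25.1%. In counts per 1000000 summed UMIs of the class (CPM), CENPF stood at 805 in high-score and 10.4 in low-score cells, and CCNB1 at 554 and 13.1. AURKA, the spindle pole kinase, stood at 223 and 3.78 CPM, ASPM, a spindle pole protein, at 224 and 1.64, CDC20, the activator of the anaphase-promoting complex, at 229 and 5.27, and PLK1, the Polo kinase, at 170 and 2.31. A UMI of CENPF was found in 99.4% of high-score and 11.4% of low-score cells, of ASPM in 86.2% and 1.89%, and of AURKA in 83.6% and 4.34%. The rule fixed these levels, and they do not bear on what the cells are.

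Membership did not hang on a single gene of the score. When the score was rebuilt from 5 genes, the new top 10% shared between 86.6% of its cells with the original (CENPF left out) and 96.5% (PLK1 left out). The gene left out was then higher in the cells chosen by the other 5, by between 4.13 (CDC20) and 5.85 (ASPM) on the log2 scale. The edge of the class was gradual. The 100 cells just inside it had a median score of 13.7 per 10000 and the 100 just outside 12.7, and HMMR, which was not used, stood at 317 and 283 CPM, TOP2A at 217 and 176, and UBE2C at 555 and 523.

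High-score cells also held more RNA. They had a median of 14979.5 UMIs, with quartiles of 10889 and 18163, against 11091 in low-score cells, with quartiles of 9374 and 13204. After thinning each cell to 5000 UMIs, which left out 20 high-score and 141 low-score cells, the median number of genes was 2029.5 in high-score and 1875 in low-score cells (3956 and 3112 before thinning). The median mitochondrial share was 10.4% and 11.0%, and the median sgRNA count was 9 UMIs in both. Guides against 2 or more targets were found in 8.38% of high-score cells (exact 95% interval 6.75 to 10.3) and in 8.40% of low-score cells (7.65 to 9.20). Doublets, repeated infection and vectors with several guides cannot be told apart in them. The 10847 barcodes of the matrix were all distinct.

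Of 9833 genes with at least 5 CPM over all kept cells, 346 were at least 2-fold higher in high-score cells (3.52% of the genes compared) and 50 were at least 2-fold lower (0.508%). Lists of mitotic machinery fixed with earlier results known held 134 of the genes compared, of which 110 were at least 2-fold higher and none was 2-fold lower. Another 213 of the higher genes were in no list. There were 135 genes past 4-fold, 76 past 8-fold and 43 past 16-fold, and 42 of these 43 were in the mitosis lists. The other was FAM83D, a spindle protein named here after its values were seen, at 68.0 against 1.59 CPM (log2 difference 5.42). The 5 sgRNA targets with at least 20 high-score cells and the controls gave 6 classes of cells, and 333 of the 346 higher genes and 40 of the 50 lower genes kept their direction in each. These classes are parts of the same cells whose sums chose the genes, so the shared direction is partly built in and is no replication. They hold only cells assigned to 1 sgRNA, as 580 of the 1014 high-score cells were. A value over all cells can therefore lie outside the range of the classes. The median log2 difference over all genes was 0.12. It was -0.02 after scaling with edgeR's TMM factors, which put 278 genes higher and 78 lower, and 0.47 in mean UMIs per cell, which put 693 higher and 15 lower.

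**Figure D1:**
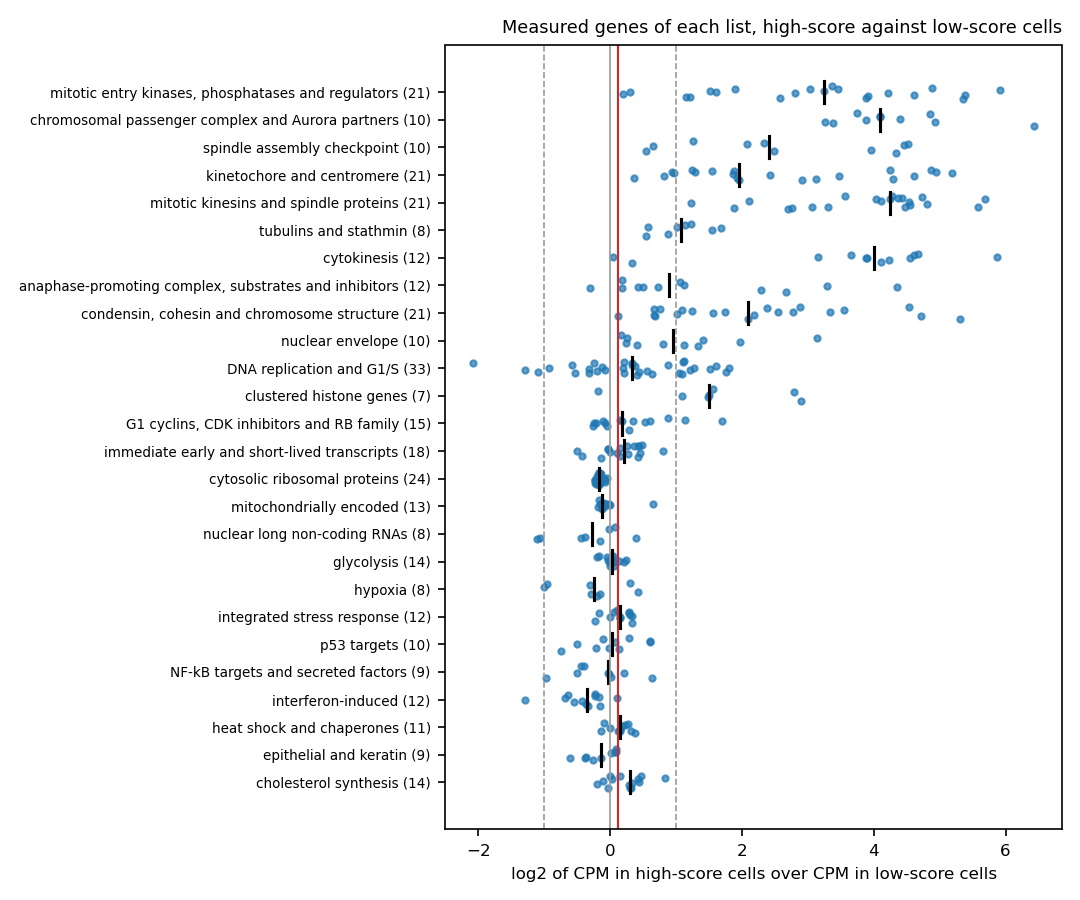
Each dot is a gene of a list, placed at its log2 difference in CPM between high-score and low-score cells. Black bars are list medians, the red line is the median of all genes (0.12) and the dashed lines mark 2-fold. The lists of spindle kinesins, passenger complex and cytokinesis have medians of 4.24, 4.09 and 4.0, while the ribosomal, mitochondrial, epithelial and stress lists lie around 0.

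Among regulators of mitotic entry, 19 of 21 measured genes were at least 2-fold higher, with a median log2 difference of 3.24 and a summed level of 3489 CPM in high-score against 522 in low-score cells. HMMR, a spindle-assembly protein, stood at 513 CPM (exact Poisson 95% interval 502 to 525, counting error only) against 8.51 (7.79 to 9.28). That is a log2 difference of 5.92, and the 6 sgRNA classes gave 5.99 to 6.66. After thinning, 88.2% of high-score and 3.63% of low-score cells held an HMMR UMI. CDK1, the mitotic kinase itself, stood at 531 and 36.0 CPM (log2 difference 3.88), with 3.89 to 4.56 over the sgRNA classes. CCNB2, the other B-type cyclin, was higher by 3.91, CCNA2, the cyclin of S phase and early mitosis, by 4.88, and CKS2, a CDK-binding subunit, by 3.36. The CDK1-activating phosphatases CDC25C and CDC25B were higher by 4.21 and 2.58, and WEE1, the kinase that holds CDK1 back, by 1.61. GTSE1, a microtubule plus-end protein of this list, stood at 73.9 against 1.77 CPM (5.38). FOXM1 and MYBL2, transcription factors of the G2 programme, were higher by 2.81 and 1.52. The members short of 2-fold were ENSA (0.30) and ARPP19 (0.19), the small phosphatase inhibitors that act when phosphorylated.

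The chromosomal passenger complex and its Aurora partners were all at least 2-fold higher, 10 of 10 measured genes with a median of 4.09. KIF20A, the kinesin that carries the complex to the midzone, had the largest difference of any list member outside the score, at 38.9 CPM (35.9 to 42.2) against 0.451 (0.297 to 0.657), a log2 difference of 6.43 that ran from 5.93 to 7.36 over the sgRNA classes. AURKB, its kinase, stood at 89.8 and 6.72 CPM, BIRC5 (survivin) at 191 and 19.9, and CDCA8 (borealin) and INCENP were higher by 4.86 and 3.38. TPX2, which activates Aurora A on the spindle, stood at 386 and 18.3 CPM.

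Of the motors and spindle proteins, 21 of 21 were at least 2-fold higher, with a median of 4.24 and a summed level of 2454 against 269 CPM. DLGAP5, which bundles kinetochore fibres, stood at 173 against 3.38 CPM (log2 difference 5.68) and KIF14, a midbody kinesin, at 112 against 2.34 (5.57). KIF11, the motor that pushes the poles apart, was higher by 4.03 and NUSAP1 by 4.24. Tubulins and stathmin differed less, 5 of 8 past 2-fold with a median of 1.08. TUBA1B stood at 1144 and 520 CPM and TUBB4B at 744 and 254, and STMN1, which destabilises microtubules, at 302 and 94.3.

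In the checkpoint list 8 of 10 were past 2-fold with a median of 2.41, KNL1, its kinetochore platform, at 4.52, BUB1B at 4.46, BUB1 at 4.33 and TTK, the kinase that starts the signal, at 3.96, while MAD1L1 (0.64) and ZW10 (0.54) were not. In the kinetochore and centromere list 17 of 21 were past 2-fold with a median of 1.96. CENPA, the histone H3 of centromeres, stood at 117 and 3.19 CPM (log2 difference 5.19) and its chaperone HJURP was higher by 4.87, CENPE, the kinesin that moves chromosomes to the metaphase plate, by 4.94, NUF2 by 4.62 and NDC80 by 4.24. MIS12, of the same outer kinetochore network, differed by 0.36.

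Genes of mitotic exit were among the higher ones too. The cytokinesis list had 10 of 12 past 2-fold with a median of 4.0, DEPDC1 at 154 against 2.64 CPM (log2 difference 5.87), ANLN (anillin) at 121 against 4.93, CEP55 higher by 4.55 and PRC1, which bundles midzone microtubules, by 4.23, whereas MYH9 (0.33) and RHOA (0.04), which serve the cortex throughout the cycle, were not. In the list of the anaphase-promoting complex 6 of 12 were past 2-fold with a median of 0.89. UBE2C, its ubiquitin-conjugating enzyme, stood at 798 against 39.1 CPM (log2 difference 4.35), UBE2S, which extends the chains, at 2415 against 379 (2.67), PTTG1 (securin) at 667 against 68.1 (3.29) and FBXO5, an inhibitor of the complex, was higher by 2.29. Core subunits differed less, CDC27 by 1.05 and ANAPC13 by -0.31.

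In the list of condensin, cohesin and chromosome proteins 16 of 21 were past 2-fold with a median of 2.09. TOP2A, the topoisomerase that untangles sister chromatids, stood at 352 CPM (342 to 361) against 8.86 (8.12 to 9.65), MKI67 (Ki-67), which coats mitotic chromosomes, at 234 against 8.93, HMGB2 at 601 against 59.7, and SMC4 of condensin was higher by 2.87. STAG2, a cohesin subunit present through the cycle, differed by 0.11. Nuclear envelope genes had 5 of 10 past 2-fold with a median of 0.96, among them LMNB1 (lamin B1, 43.2 against 4.91 CPM), TMPO (1.97) and LBR (1.41).

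Transcripts of DNA replication went both ways. Of 33 measured genes of replication and G1/S, 10 were at least 2-fold higher (3.52% of all genes were) and 3 at least 2-fold lower (0.508% of all genes), with a median of 0.33 against 0.12 over all genes and a summed level of 1015 against 755 CPM. RRM2, the ribonucleotide reductase subunit, stood at 43.3 against 12.4 CPM, E2F8 was higher by 1.76 and TYMS, thymidylate synthase, by 1.52. UNG, a DNA repair enzyme of G1/S, stood at 2.77 CPM (2.00 to 3.75) against 11.7 (10.8 to 12.6), a log2 difference of -2.08, E2F1 at 2.38 against 5.85 (-1.30), and MCM5, a subunit of the replicative helicase, at 5.41 against 11.6 (-1.10). PCNA, the polymerase clamp, stood at 49.8 against 72.0 CPM (-0.53). Of 7 measured clustered histone genes 6 were past 2-fold higher, HIST1H1D at 50.4 against 6.77 CPM and HIST1H4C at 234 against 82.6.

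Beyond the lists, 213 genes were at least 2-fold higher. The 15 with the largest differences among genes of at least 20 CPM were led by KPNA2, an importin. It stood at 295 CPM (286 to 304) against 24.6 (23.3 to 25.9), a log2 difference of 3.58 that ran from 3.41 to 3.89 over the sgRNA classes. PBK, a mitotic kinase, stood at 114 against 10.4 CPM, DBF4, the activator of CDC7, at 112 against 12.8, GPSM2, which orients the spindle, at 74.3 against 10.0, CIP2A at 126 against 17.9 and the formin DIAPH3 at 67.3 against 10.5. The others were TRIM59, CNTRL, POC1A, G2E3, RAD51AP1, RTKN2, FANCI, BRCA2 and BARD1, between 1.70 and 2.31. Of these, RAD51AP1, FANCI, BRCA2 and BARD1 act in repair of DNA breaks and crosslinks, and BRCA2 stood at 32.5 against 9.75 CPM.

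Few genes were lower. The largest negative difference among genes of at least 20 CPM was IGFBP3, a secreted binding protein for insulin-like growth factors, at 11.3 CPM (9.66 to 13.1) against 39.0 (37.4 to 40.6), a log2 difference of -1.79 that ran from -2.50 to -1.43 over the sgRNA classes. Of the 12 lowest such genes outside the lists, 7 were at least 2-fold lower. After IGFBP3 they were OCEL1 at 15.04 against 35.3 CPM, PSCA, a surface antigen, at 49.2 against 110, CEACAM6, an adhesion protein, at 35.1 against 77.9, AGR2, a secretory-pathway protein, at 60.6 against 128, TGFBR3L at 11.8 against 24.3 and MSH6, a mismatch repair protein, at 13.5 against 27.7. GLRX, NR0B1, FXYD3, NEURL3 and FILIP1L lay between -0.98 and -0.87. Among nuclear long non-coding RNAs 2 of 8 were at least 2-fold lower, NEAT1 at 606 against 1305 CPM and LINC01133 at a log2 difference of -1.07, while MALAT1 differed by -0.45. IFIT2 was the interferon-induced gene of 12 past 2-fold, at 6.86 against 16.8 CPM, and NDRG1 (-1.01) the hypoxia gene of 8. In mean UMIs per cell, with no scaling to depth, the differences of IGFBP3, CEACAM6, AGR2, NEAT1 and IFIT2 were -1.45, -0.81, -0.73, -0.77 and -0.95. This scale adds the same amount to every gene's log2 difference, so it is no separate check of them.

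Most other programmes differed little. None of 24 ribosomal protein genes passed 2-fold (median -0.17, 81473 against 91120 CPM in sum), none of 13 mitochondrially encoded genes (-0.12), none of 14 glycolytic genes (0.03), none of 18 immediate early genes (0.20), none of 12 genes of the integrated stress response (0.15), none of 10 p53 targets (0.02) and none of 9 epithelial and keratin genes (-0.14). The negative medians of the ribosomal and mitochondrial lists became 0.17 and 0.22 in mean UMIs per cell, and that of the epithelial list became 0.20, so their sign depended on the scaling. Of 15 G1 cyclins, CDK inhibitors and RB family genes 2 were past 2-fold, CDKN2D at 38.3 against 11.9 CPM and CDK2 at a log2 difference of 1.14, and CCND1, cyclin D1, differed by 0.29. Of cells foreign to the line, markers of fibroblasts and endothelial cells were near 0 in both classes, and those of immune cells too, apart from CD68. Markers of other foreign cells were not listed. The 7 fibroblast markers summed to 3.56 and 2.37 CPM with 5 and 4 of them at 0, the 5 endothelial markers to 3.56 and 1.97 with 2 at 0 in each, and the 6 immune markers to 13.6 and 23.0, nearly all of it CD68 (13.3 and 22.5).

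The promoters of the largest differences were read because members that move together may share sequence. RefSeq promoters of GRCh38.p14, 250 bases before to 50 after the start site, were found for 270 of the 346 higher genes. The cell cycle homology element TTTGAA, searched on both strands, and the CCAAT box, searched on both strands, are the elements classically described in promoters of G2 and mitosis genes. The 6 windows printed here belong to mitosis-list members with large log2 differences (5.31 to 5.92) whose promoter holds both a TTTGAA and a CCAAT. Both elements were required by this choice, so the windows show only how closely the elements sit. Of the 37 matched promoters of genes past 16-fold, 21 (56.8%) held both, against 3.99% of the promoters of all genes compared. Capitals mark TTTGAA or its reverse complement TTCAAA, and CCAAT or its reverse complement ATTGG, and each sequence runs 5′ to 3′ on the gene's strand.
HMMR, chr5:163460535-163460639, plus strand: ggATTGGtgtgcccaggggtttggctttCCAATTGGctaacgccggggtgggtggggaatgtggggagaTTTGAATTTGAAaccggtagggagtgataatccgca
DEPDC1, chr1:68497080-68497184, minus strand: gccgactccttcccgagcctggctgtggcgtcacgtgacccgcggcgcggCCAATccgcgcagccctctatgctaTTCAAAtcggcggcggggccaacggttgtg
DLGAP5, chr14:55191571-55191657, minus strand: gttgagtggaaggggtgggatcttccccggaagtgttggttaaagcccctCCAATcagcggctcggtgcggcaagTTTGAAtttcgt
KIF14, chr1:200620737-200620825, minus strand: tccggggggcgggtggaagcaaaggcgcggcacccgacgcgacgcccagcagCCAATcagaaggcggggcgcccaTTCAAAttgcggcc
GTSE1, chr22:46296769-46296873, plus strand: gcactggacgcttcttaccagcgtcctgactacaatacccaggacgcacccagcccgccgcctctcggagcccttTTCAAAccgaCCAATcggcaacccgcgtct
TOP2A, chr17:40418018-40418122, minus strand: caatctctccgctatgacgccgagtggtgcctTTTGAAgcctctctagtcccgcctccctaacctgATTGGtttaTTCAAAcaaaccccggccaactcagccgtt

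TTTGAA occurred in 28 of the 37 matched promoters of genes past 16-fold (75.7%), in 38.1% of the 270 past 2-fold and in 9.23% of the 7788 promoters of all genes compared. Among mitosis lists it was in 59.8% of the 92 promoters of genes past 2-fold and in 14.3% of the 21 short of it, although both sets come from the same lists. In the replication list 3.85% of 26 held it, and of the 36 promoters of genes at least 2-fold lower 19.4%. Over all 27305 promoters in the table the share was 15.4%. CCAAT was less selective, at 73.0% of the promoters past 16-fold, 66.3% of the higher and 66.7% of the other mitosis-list promoters, 65.4% of the replication list and 36.8% of all genes compared. In the 37 promoters, 19 had a TTTGAA within the 100 bases before the start site (51.4%, against 4.89% of all promoters). A match says only that these letters are in the window.

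Along the score, mitotic levels differed by degrees and the gene groups had their highest levels in different bands. From cells with score 0 through 7 bands of rising score, HMMR stood at 5.08, 13.2, 30.3, 49.6, 85.1, 199, 386 and 634 CPM. It was higher at every step, and between the first and the last band TOP2A went from 4.76 to 447 CPM, UBE2C from 23.6 to 969, CDK1 from 17.6 to 630 and KIF20A from 0.318 to 51.7. The replication list summed to 548, 1027, 1679, 2166, 2065, 1412, 1067 and 956 CPM, so its highest band was the cells between 60 and 70% of the ranks. PCNA followed with 49.6, 103, 168, 226, 206, 109, 57.5 and 42.4 CPM. The clustered histones were highest a band later, summing to 110, 194, 360, 541, 640, 593, 488 and 311 CPM. IGFBP3 went from 48.6 to 7.84 CPM and NEAT1 from 1410 to 561. Median UMIs per cell also differed along the score, from 10498 at score 0 to 15738 in the top band.

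**Figure D2:**
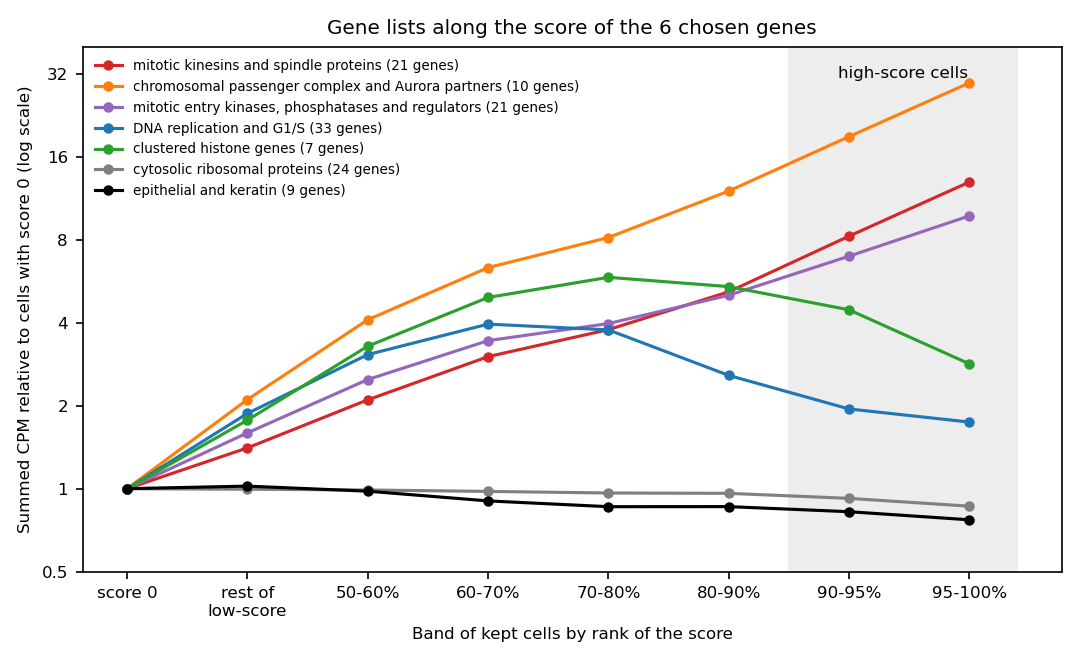
Summed CPM of gene lists in 8 bands of rising score, each relative to the cells with score 0, on a log2 axis. The mitotic lists climb to the last band, the replication and histone lists peak in the middle bands, and the ribosomal and epithelial lists stay near or below their starting level.

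Inside the high-score class the upper and lower bands of 507 cells each were alike for most genes. Of 5579 genes compared, 3 were at least 2-fold higher in the upper band and none was 2-fold lower. These were NDE1, a dynein regulator, at 14.4 and 30.6 CPM, FAM83D at 43.9 and 90.8, and KIF20A at 25.5 and 51.7. Close behind came KIF14 (log2 difference 0.94), ANLN (0.93), NEK2, a centrosome kinase (0.92), and KPNA2 (206 to 379 CPM, 0.88). In the other direction stood the histone genes, HIST1H1D at 66.2 and 35.5 CPM, HIST2H2AC and HIST1H1C at log2 differences of -0.69 and -0.68 and HIST1H4C at 282 and 188 CPM. Guides of 2 or more targets were seen in 11.2% of the lower and 5.52% of the upper band.

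The UMI totals of high-score cells formed 2 humps, one near those of the low-score cells and one well above. The 325 high-score cells with the fewest UMIs (at most 12817, median 10029) were set beside the 325 with the most (at least 17211, median 19727), a split made after the histogram was seen, without the FABP5-positive cells described below. Of 5593 genes, 11 were at least 2-fold higher in the high-UMI cells and 6 lower. CDK1 went from 215 to 605 CPM, a log2 difference of 1.49, TOP2A from 185 to 403 (1.12) and UBE2C from 418 to 867 (1.05). The same 3 genes differed by 1.61, 1.06 and 1.15 between low-score cells of few and of many UMIs. FAM83D went from 30.6 to 77.0 CPM (1.33, against 0.44 in low-score cells). HMMR stood at 493.4 and 521 CPM. CCNB1 stood at 601 and 530 CPM and CDC20 at 277 and 210 (-0.18 and -0.40, against 0.70 and 0.13 in low-score cells). Both CCNB1 and CDC20 are genes of the score, so the rule limited their levels in each class. Their values cannot be compared with those of genes outside it. The 6 genes at least 2-fold higher in the low-UMI members were HIST1H2AC, a histone gene, at 43.3 against 10.5 CPM (-2.04, against -0.58 in low-score cells), AC027601.6 (-1.28 and -0.37), IFI6, an interferon-induced gene (-1.21 and -1.13), SNHG4 (-1.17 and 0.25), DUSP5, a phosphatase of ERK (-1.14 and 0.27), and FBXO32 (-1.12 and -0.21). Of 15 measured immediate early genes none passed 2-fold, 12 lay below 0 in high-score and 13 in low-score cells (44.1% and 35.5% of all genes did), and their medians were -0.40 and -0.12. JUN, MYC and ERRFI1, picked after their values were seen, did not reach 2-fold (-0.87, -0.83 and -0.76, against -0.12, -0.06 and 0.00 in low-score cells). Guides of 2 or more targets were found in 2.15% of the low-UMI and 16.3% of the high-UMI members, and in 5.53% and 15.3% of the low-score cells. Their part in these differences was not tested.

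**Figure D3:**
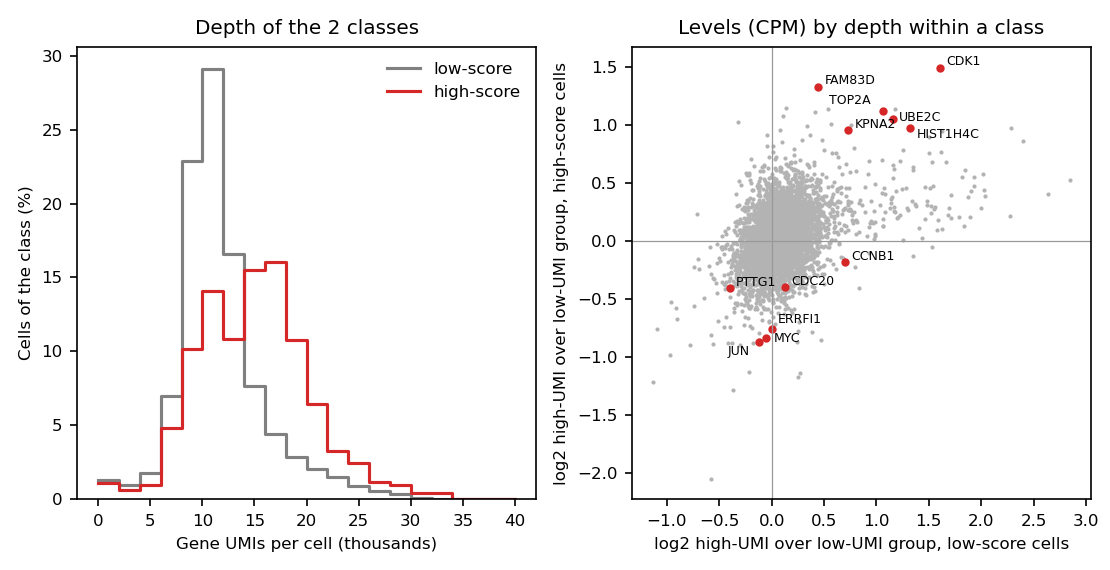
Left, the share of cells of each class by UMIs per cell; high-score cells show a hump near that of the low-score cells and another at higher UMIs. Right, each point is a gene, with its log2 difference between the high-UMI and low-UMI cells among low-score cells on the x axis and among high-score cells on the y axis; CDK1 lies at 1.61 and 1.49, JUN at -0.12 and -0.87.

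Some high-score cells belonged to a small population with another transcriptome. Cells with at least 3 FABP5 UMIs numbered 275 (2.71% of those kept), and 39 of them were high-score, 14.2% (exact 95% interval 10.3 to 18.9) against 9.88% (9.30 to 10.5) of the other cells. Only 15.3% of them could be assigned to 1 sgRNA, against 55.9% of the others. The 39 high-score FABP5-positive cells stood at 762 CPM for FABP5, a fatty acid carrier, against 1.49 in other high-score cells, at 242 against 0.883 for GTSF1, at 845 against 8.83 for NPW and at 2024 against 42.0 for AKAP12. They were low for EGFR (65.2 against 498 CPM), AKR1C3 (39.6 against 583) and TXNIP (4.66 against 161). Their mitotic genes were at levels of the same order, HMMR at 331 against 519 CPM, UBE2C at 545 against 806 and TOP2A at 298 against 353. FABP5 chose these cells, and the other values describe them. Without all FABP5-positive cells 340 genes were at least 2-fold higher in high-score cells and 54 lower, and without cells with guides of 2 or more targets 368 and 55.

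High-score cells were set beside cells in DNA replication, chosen in the same way as the top 10% by summed PCNA, MCM3, MCM5, MCM6, TYMS and GINS2. Both sets hold 1014 cells and shared 20, or 1.97% of each, and 206 of the replication-high cells (20.3%) were low-score cells. Against the 50% of cells with the lowest replication score, 339 of 9827 genes were at least 2-fold higher in the replication-high cells (3.45%). The comparisons share many cells, so their values stand side by side with no test. PCNA differed by 4.54 in the replication-high and by -0.53 in the high-score comparison, and MCM5 by 4.61 and -1.10. Both are genes of the replication score, so the rule fixed their rise in the replication-high cells. Outside that score, E2F1 differed by 4.39 and -1.30, UNG by 1.89 and -2.08 and RRM2 by 3.61 and 1.81. HIST1H4C was higher in both (2.22 and 1.5), as were CDK1 (1.32 and 3.88) and MKI67 (1.32 and 4.71). HMMR differed by -0.92 and 5.92, TOP2A by 0.34 and 5.31 and UBE2C by 0.26 and 4.35.

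The sgRNA a cell holds was not used to choose the class, so the share of high-score cells was tested by target. Of 700 control cells 62 were high-score, and the 4 control sgRNAs gave 9.33%, 11.0%, 5.03% and 10.4%, a mean of 8.93% ± 2.69 (SD, n = 4). The 4 PGAM1 sgRNAs gave 13.5%, 13.0%, 15.9% and 9.63%, a mean of 13.0% ± 2.58, and all 4 lay above the control mean. PGAM1, phosphoglycerate mutase of glycolysis, thus had a share 4.07 percentage points higher, at an exact two-sided permutation p of 0.0857 over sgRNAs, or 0.371 after Benjamini-Hochberg adjustment over the 6 targets, where 0.0286 was the smallest p possible. JUN, an AP-1 transcription factor, had 12.8%, 10.0%, 14.8%, 18.1%, 17.9% and 6.62%, a mean of 13.4% ± 4.51 with 5 of 6 above the control mean, a difference of 4.43 points and an exact permutation p of 0.124 (adjusted 0.371). The JUN sgRNAs, from 6.62 to 18.1%, overlapped the controls, from 5.03 to 11.0%, and so did PGAM1 sgRNA 4 at 9.63%. Without control sgRNA 3, the lowest at 5.03%, the PGAM1 difference was 2.77 points, with 3 of 4 sgRNAs above the control mean. The JUN difference was then 3.13 points, with 4 of 6 above.

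CTCF, the chromatin insulator protein, had a mean of 11.4% ± 3.84, a difference of 2.47 points (exact permutation p 0.352, adjusted 0.610). That difference was 0.999 points without CTCF sgRNA 3, 1.17 without control sgRNA 3, 0.810 in the top 20% of cells and 0.591 with the score from thinned cells. CTNNB1 (β-catenin) had 10.0% ± 2.30 (difference 1.10, exact permutation p 0.495, adjusted 0.610) and ATF4, the stress-response transcription factor, 9.65% ± 1.85 (0.715, exact permutation p 0.610, adjusted 0.610). MYC had only 2 sgRNAs with at least 20 cells, at 13.0% and 8.89%, where the smallest possible exact p is 0.133. No target passed the threshold of 0.05, and adjusted exact permutation p-values over the settings tried ran from 0.171 to 0.971. Without control sgRNA 3, which had the lowest control share, the differences of CTNNB1, ATF4 and MYC were -0.205, -0.586 and 0.733 points. All guides share 1 culture, so these p-values measure the spread between guides and not between cultures.

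**Figure D4:**
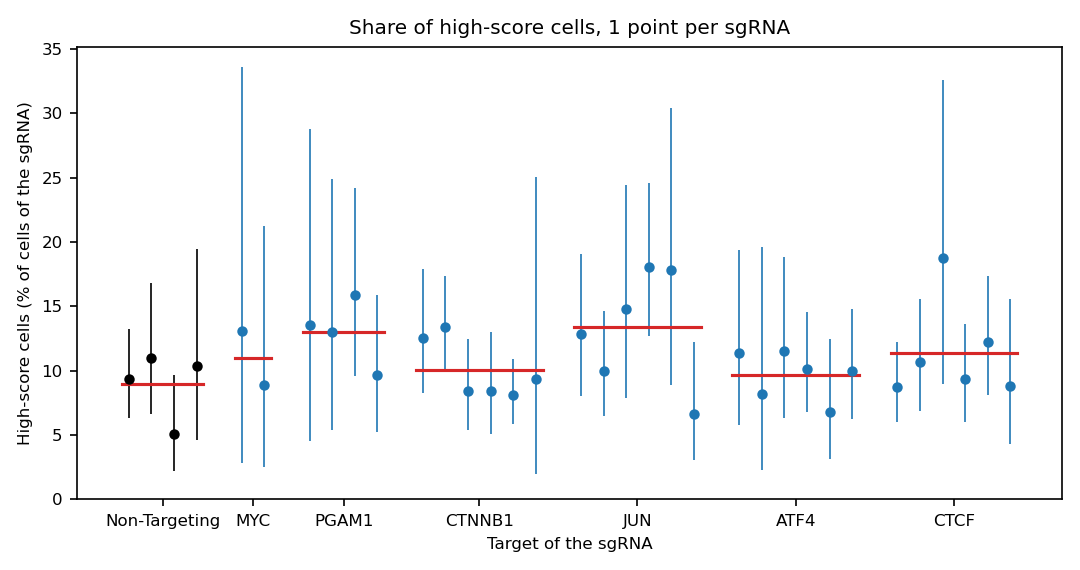
Percent of each sgRNA's assigned cells that are high-score, by target, with exact 95% binomial intervals; red lines are means over sgRNAs. The controls run from 5.03 to 11.0% and the ranges of all targets overlap them.

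Within high-score cells, gene counts were summed per sgRNA for the 30 sgRNAs with at least 5 such cells and tested against controls with edgeR's quasi-likelihood test over 5040 genes. With PGAM1 sgRNAs 7 genes passed an adjusted p of 0.05 (0.139% of those tested), 2 higher (0.0397%) and 5 lower (0.0992%). PGAM1 itself stood at 105, 70.6, 63.8 and 46.6 CPM with its sgRNAs and at 224, 213, 175 and 168 CPM with controls. The groups did not overlap, and PGAM1 fell by 1.66 ± 0.23 (SE) on the log2 scale (edgeR adjusted p 1.16e-06), a call kept without any single sgRNA. MT2A, a metallothionein that binds zinc and copper, stood at 1596, 1139, 1194 and 1772 CPM against 911, 743, 1013 and 1007, and rose by 0.66 ± 0.13 (edgeR adjusted p 0.00683). The call was lost without control sgRNA 2 (edgeR adjusted p 0.115) or PGAM1 sgRNA 4 (0.325).

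BIRC5, the survivin subunit of the passenger complex, was the mitotic gene to pass with PGAM1 sgRNAs, and it passed narrowly. It stood at 301, 262, 312 and 269 CPM with PGAM1 sgRNAs and at 146, 220, 193 and 153 CPM with controls, with no overlap, and rose by 0.73 ± 0.17 (edgeR adjusted p 0.0495). The adjusted p was above 0.05 when any single sgRNA other than control 2 was left out, reaching 0.778 without control sgRNA 1. It was 0.494 without FABP5-positive cells, where the log2 difference was 0.54. The other 9 tested passenger genes did not pass, and the list's median was 0.24 (0.02 over all genes). Against the same controls that median was also 0.24 for ATF4 sgRNAs, 0.13 for JUN, 0.12 for CTCF and -0.004 for CTNNB1. With PGAM1 sgRNAs all 6 genes of the score lay above 0 as well, with a median of 0.17 (47.8% of all genes lay below 0). Whether BIRC5 rose apart from the score was not tested. QARS, glutaminyl-tRNA synthetase, stood at 30.1, 30.2, 31.9 and 15.5 CPM against 80.03, 78.4, 46.0 and 83.9 and fell by 1.5 ± 0.36 (edgeR adjusted p 0.0495). Its counts were 2 to 9 UMIs per PGAM1 sgRNA, and the call was lost without any single sgRNA, with edgeR adjusted p between 0.0549 and 0.403.

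The other 3 genes that fell with PGAM1 sgRNAs were encoded by the mitochondrial genome. MT-CO2, a cytochrome oxidase subunit, fell by 0.35 on the log2 scale (edgeR adjusted p 0.0164), MT-ND5, of complex I, by 0.52 (0.0282) and MT-CYB, cytochrome b, by 0.36 (0.0282). Of that list 12 of 12 tested genes lay below 0, with a median of -0.19, where 47.8% of all genes lay below 0 and their median was 0.02. Against the same controls the list had 10 of 12 genes below 0 for CTNNB1, JUN and ATF4 sgRNAs alike (medians -0.04, -0.07 and -0.05) and 7 of 12 for CTCF sgRNAs (-0.01). Whether PGAM1 sgRNAs differ from these was not tested. Each call was lost without some single sgRNAs: MT-CO2 without control 2 or 3 or PGAM1 sgRNA 1, MT-ND5 without control 2 or 3 or PGAM1 sgRNA 2 or 4, and MT-CYB without control 3 or 4 or PGAM1 sgRNA 1, 2 or 4, with edgeR adjusted p up to 0.129, 0.325 and 0.179.

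With ATF4 sgRNAs 3 genes fell and none rose (0.0595% of genes tested). NUPR1, a stress-induced chromatin protein, stood at 0, 10.2, 17.4, 19.6 and 19.99 CPM in the 5 ATF4 sgRNAs and at 51.8, 33.6, 55.2 and 145 CPM in the controls. The groups did not overlap, and NUPR1 fell by 2.05 ± 0.40 (edgeR adjusted p 0.00675), a call lost without control sgRNA 4 (0.0932). PSAT1, an enzyme of serine synthesis, stood at 153, 189, 139, 215 and 223 CPM against 266, 355, 387 and 267 and fell by 0.78 ± 0.16 (edgeR adjusted p 0.00675; 0.140 without control sgRNA 2 and 0.113 without ATF4 sgRNA 4). PCK2, mitochondrial phosphoenolpyruvate carboxykinase, stood at 111, 81.5, 84.4, 71.7 and 79.97 CPM against 160, 164, 184 and 145 and fell by 0.92 ± 0.19 (edgeR adjusted p 0.00897). Leaving out control sgRNA 1 gave 0.106, control sgRNA 2 gave 0.105 and ATF4 sgRNA 4 gave 0.0682 as the edgeR adjusted p. These 3 belong to the integrated stress response list, of which 8 of 8 tested genes, these 3 included, lay below 0. The list's median was -0.42, while 49.4% of all genes lay below 0, with a median of 0.00. Against the same controls 3 of 8 lay below 0 for PGAM1 and for CTNNB1 sgRNAs, 6 of 8 for JUN and 4 of 8 for CTCF. ATF4's own transcript stood at 292 ± 97.8 CPM (SD, n = 5) against 378 ± 30.7 (n = 4), a log2 difference of -0.34 ± 0.15 that did not pass (edgeR adjusted p 0.699, but 0.00343 in the top 20% of cells).

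**Figure D5:**
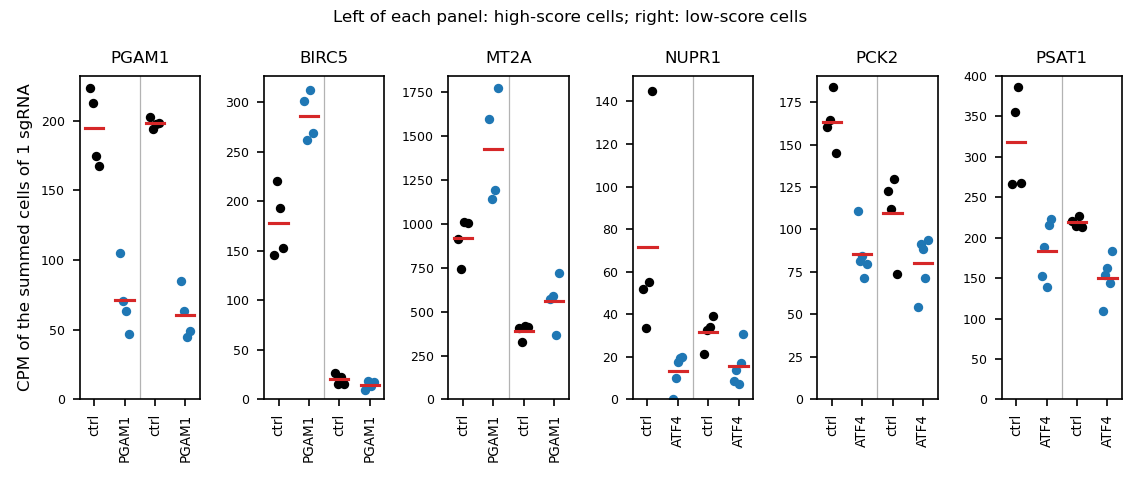
CPM per sgRNA of PGAM1, BIRC5, MT2A, NUPR1, PCK2 and PSAT1, in high-score cells on the left and low-score cells on the right of each panel; black points are control sgRNAs, blue points those of the target and red bars are means. In high-score cells each target's points lie apart from the controls.

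For CTNNB1, JUN and CTCF sgRNAs no gene passed within high-score cells by edgeR (0.0% of genes tested) or DESeq2. An unadjusted edgeR p under 0.05 was found for 205, 199 and 235 of 5040 genes, each fewer than the 1 in 20 that chance alone would give. CTNNB1's transcript stood at 32.3, 30.5, 21.6, 7.51 and 53.1 CPM with its sgRNAs and at 56.5, 67.2, 46.0 and 99.2 CPM with controls, overlapping in 1 sgRNA, a log2 difference of -0.98 ± 0.28 (edgeR adjusted p 0.954, but 0.0313 in the top 20% of cells). CTCF's transcript stood at 47.2 ± 21.8 CPM (SD, n = 6) against 83.2 ± 24.7 (n = 4), a log2 difference of -0.54 ± 0.26 (edgeR adjusted p 0.992). JUN's transcript differed by 0.13 ± 0.31 (edgeR adjusted p 1.00), with levels of 31.5 to 103 CPM against 18.4 to 93.4. The genes with the smallest p for JUN sgRNAs were ACTB, β-actin (log2 difference -0.30), S100A9, a calcium-binding protein (0.69), and GDE1 (-0.77). For CTCF sgRNAs SERPINE2 (-0.85) and CDC73 (1.16) were among them, and for CTNNB1 sgRNAs, beside its own transcript, C11orf49 (-0.83) and OPN3 (-1.06). MYC sgRNAs had too few high-score cells to be tested.

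Whether an sgRNA effect differed between high-score and low-score cells was tested as an interaction over 8006 genes, with the sgRNA as a block. No gene passed for any of the 5 targets by edgeR (0.0%) or by DESeq2. Unadjusted edgeR p-values under 0.05 numbered 389, 324, 316, 367 and 335 of the 8006 genes for PGAM1, CTNNB1, JUN, ATF4 and CTCF. Each was fewer than the 1 in 20 that chance alone would give. PGAM1's own fall differed between the classes by 0.19 ± 0.30 on the log2 scale (edgeR adjusted p 0.995), and in low-score cells its sgRNAs stood at 84.7, 63.3, 45.1 and 48.9 CPM against 203, 194, 198 and 198. The difference of CTCF's own transcript was -0.76 ± 0.32 (edgeR adjusted p 0.999). In low-score cells CTCF stood at 36.9, 17.4, 27.7, 31.8, 31.7 and 38.0 CPM with its sgRNAs. With controls it stood there at 26.0, 28.6, 27.4 and 19.6 CPM, so the groups overlapped and the CTCF sgRNAs were not the lower group. BIRC5 stood at 9.96 to 18.4 CPM with PGAM1 sgRNAs in low-score cells and at 15.2 to 26.6 with controls.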

How the data were processed

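A gene and sgRNA count matrix of 1 pooled 10x library was used. Its deposited UMI counts are unnormalized whole numbers. The file headers name Cell Ranger 6.1.2, and the submitters' processing notes name hg38. Barcodes with at least 1000 UMIs, 500 genes and at most 20% mitochondrial UMIs were kept, and kept cells held 1011 to 39824 UMIs. No doublet caller was run. A cell was assigned to an sgRNA with at least 5 UMIs and 80% of its sgRNA UMIs. The members and gene lists were chosen with earlier results of these data known.

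Counts were summed per class and given as CPM, with exact intervals for counting error only. Genes needed 5 CPM. Tests used edgeR 4.0.16 (quasi-likelihood, TMM, filterByExpr, Benjamini-Hochberg) in R 4.3.3, with DESeq2 1.42.0 as the alternative, and exact permutation over sgRNAs in scipy 1.17.1. The edgeR fits, but not DESeq2 or the permutation test, were tried on simulated counts with the same spread for every gene. Named genes were list members, the 15 highest and 12 lowest genes of at least 20 CPM with 1 direction in every sgRNA class, the target's transcript and calls with 1 direction in every sgRNA, or else the 3 smallest p, of which 1 gene is not reported here. Promoters and their coordinates came from RefSeq on GRCh38.p14.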

Additional observations from a re-analysis of the deposited data

Results flagged for a closer look

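The lone sgRNA furthest from the others of its target was marked where its gap to the nearest exceeded what 95% of such groups show. Of 34 groups checked 4 gave such a value, and chance gives about 1 in 20. CTCF sgRNA 3 had a share of high-score cells of 18.75%, from 9 of 48 cells, the highest of 6 CTCF sgRNAs. Within high-score cells, MT-CYB stood at 9923 CPM with PGAM1 sgRNA 3, the highest of 4. QARS stood at 15.5 CPM with PGAM1 sgRNA 4, the lowest of 4, and at 46.0 CPM with control sgRNA 3, the lowest of 4 controls.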

How the results depend on the processing

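The settings without FABP5-positive cells or without cells with guides of 2 or more targets were chosen after seeing the data. The 346 genes at least 2-fold higher became 693 in mean UMIs per cell, 994 with a minimum of 10 UMIs in place of the CPM filter and 153 at 20 CPM. The 50 lower genes became 15, 703 and 8 there, 78 under TMM scaling, 31 in the top 20% of cells and 31 with a score from cells thinned to 5000 UMIs. With that thinned score, which set 1031 cells against 6501, the higher genes fell to 234. With CENPF left out of the score they fell to 273. The MYC share difference was -0.918 points in the top 20% of cells and -1.78 with the thinned score, which also gave -0.496 for CTNNB1. Leaving out single sgRNAs gave share differences of -0.205 to 1.78 points for CTNNB1 and -0.586 to 1.40 for ATF4. The MYC share could not be computed with the rule of 10 UMIs and 95% of sgRNA UMIs or at most 10% mitochondrial UMIs.

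Within high-score cells PGAM1 sgRNAs called 2 genes with an sgRNA rule of 3 UMIs and 60%, 15 in the top 20% of cells, 4 without FABP5-positive cells and 2 to 7 without single sgRNAs. ATF4 sgRNAs called 5 with no filter, 15 with the looser sgRNA rule, 21 in the top 20%, 9 without FABP5-positive cells, 8 when fitted alone with controls and 1 to 10 without single sgRNAs. CTNNB1 sgRNAs called 2 in the top 20%. JUN sgRNAs called 1 with no filter, 1 with the looser rule, 1 when fitted alone and 0 to 1 without single sgRNAs (1 without control sgRNA 4). CTCF sgRNAs called 1 with no filter and 0 to 1 without single sgRNAs (1 without CTCF sgRNA 1). The interaction called 3 genes for PGAM1, 1 for ATF4 and 1 for CTCF with no filter, and 1 for CTNNB1 and 2 for CTCF in the top 20%. Without single sgRNAs it called 0 to 1 for PGAM1 and 0 to 1 for CTNNB1. JUN's own log2 difference with JUN sgRNAs was -0.21 in the top 20% and ran from -0.24 to 0.49 without single sgRNAs, with -0.06 and -0.01 without control sgRNAs 1 and 3. The cause of these shifts was not tested. No paired analysis was possible because sgRNA numbers do not pair guides across targets. With 1 culture, no value covers the spread between cultures, and 5 to 47 high-score cells per sgRNA limit what the sgRNA tests can detect.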
